A study of Mus musculus with 4 samples.

Results

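The 36 genes described here encode ligands of the TGF-beta and BMP family, the secreted proteins that trap those ligands, their receptors, the inhibitory SMADs and the ID genes. They were chosen by name, by matching gene symbols to the Ensembl IDs of the deposited count table. No rule on measured values was applied, but earlier results of these data were known when the genes were chosen. All 36 were found among the 54532 gene IDs of the table, and 30 of them were among the 13306 genes with enough counts to be tested. RNA was sequenced from primary mouse embryonic fibroblasts (MEFs), cultured connective tissue cells of several kinds taken from minced embryos, at 1 library per genotype for 4 genotypes. They were wild type (WT), the single nulls Zfp871-/- and Trp53-/-, and their combination Trp53-/-; Zfp871-/-, called the double null below. All cells were C57BL/6, came from embryos aged 12.5 to 13.5 days post-coitum, were kept in DMEM with fetal bovine serum and were collected at passage 4 while still dividing. Trp53 encodes the transcription factor p53, and Zfp871 encodes a zinc finger protein. Intercrosses of double heterozygotes yielded WT, Trp53-/- and double-null cells, and crosses of Zfp871 heterozygotes yielded WT and Zfp871-/- cells. The sources used here do not say which cross gave the sequenced WT cells, whether embryos were pooled, what sex they were or how the alleles were made.

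In this family a dimeric ligand brings type II and type I receptors together, and the type I receptor then phosphorylates SMAD proteins that enter the nucleus with SMAD4. TGF-betas and activins act mainly through SMAD2 and SMAD3, and BMPs and many GDFs through SMAD1, SMAD5 and SMAD9. Fibroblasts answer TGF-beta with matrix production and contractile genes, while BMPs direct cartilage and bone formation in the embryo. Serum itself carries ligands of the family.

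The libraries held 19303167 counts (WT), 19974054 (Zfp871-/-), 21004078 (Trp53-/-) and 22324599 (double null), the order used for every set of 4 values below. With 1 library per genotype, pairwise ratios have no replicate check, and their intervals are exact Clopper-Pearson 95% intervals that cover counting error only. The only test is the edgeR quasi-likelihood test of an additive model with a Trp53 and a Zfp871 term. Each term has 2 libraries on either side, so the p-values compare these 4 cultures. The words rose and fell are kept for genes with a Benjamini-Hochberg adjusted p under 0.05 in it. As a check of the labels, each targeted gene was lowest where it was knocked out: Zfp871 had 660, 327, 784 and 307 counts and Trp53 had 2383, 2413, 1233 and 1382. Each of 10 fibroblast markers was counted in every library, with summed levels of 29964 to 43323 normalized CPM (counts scaled to library size). Single fibroblast markers differed more than this sum. Thy1 stood at 347, 869, 1138 and 959 normalized CPM and Col1a1 at 14861, 15804, 10250 and 8839. In Trp53-/- over WT, 3 of the 10 were at least 2-fold higher (8.9% of all genes) and 0 at least 2-fold lower (8.88%). Col3a1 fell with Trp53 loss. The 9 skeletal muscle markers summed to 15.5, 18.8, 5.81 and 11.0 normalized CPM. Of these the regulators Myod1, Myog and Myf5 had 0 counts throughout, while Acta1 had 217, 195, 101 and 202 and Des had 63, 157, 21 and 46. Markers of other cells also differed between the libraries. 15 of 15 macrophage markers rose with Trp53 loss, with summed normalized CPM of 78.0, 89.5, 1095 and 982. The 13 cartilage markers summed to 1353, 525, 142 and 202 normalized CPM, and mesothelial markers to 12.0, 37.7, 22.7 and 17.7. In bulk RNA, fewer cells of a type and less RNA per cell cannot be told apart.

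Loss of Trp53 went with lower RNA of several ligands and antagonists. 5 of the 30 tested genes fell with Trp53 loss (Gdf6, Inhbb, Fst, Tgfbr2 and Smad6), where 4.31% of all tested genes fell, and 0 of 30 rose, where 5.01% of all did. At an unadjusted p under 0.05 there were 12 of the 30, beside 31.0% of all genes. Where Zfp871 was intact, 10 of 30 lay at least 2-fold below WT in Trp53-/- (8.88% of all genes) and 1 lay as far above (8.9%). Where Zfp871 was lost, 7 of 30 were at least 2-fold lower in the double null than in Zfp871-/- (6.33%) and 0 were higher (5.51%). 6 genes were at least 2-fold lower in both backgrounds, namely Bmp4, Gdf6, Gdf10, Inhbb, Chrd and Fst, beside 4.58% of all genes, and 0 were at least 2-fold higher in both, beside 4.25%. The median log2 ratio of the 30 genes was -0.20 for Trp53-/- over WT and -0.37 for the double null over Zfp871-/-, and both medians over all tested genes were 0.00.

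With Trp53 as the only term and 3 libraries, the same 5 genes fell without the WT library, where 13 of the 30 were called and 11.9% of all genes. They also fell without the Zfp871-/- library, where 12 were called and 17.8% of all genes. Without the Trp53-/- library or without the double-null library, 0 of 13306 genes passed the edgeR test, although 14.4% and 13.7% of genes had an unadjusted p under 0.05. The terms there were -2.39 and -1.95 for Fst, -3.48 and -3.33 for Gdf6, -1.72 and -1.01 for Inhbb, -1.02 and -1.12 for Smad6, and -1.02 and -0.87 for Tgfbr2. The lone library of a level is assumed there to vary like the others.

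**Figure D1:**
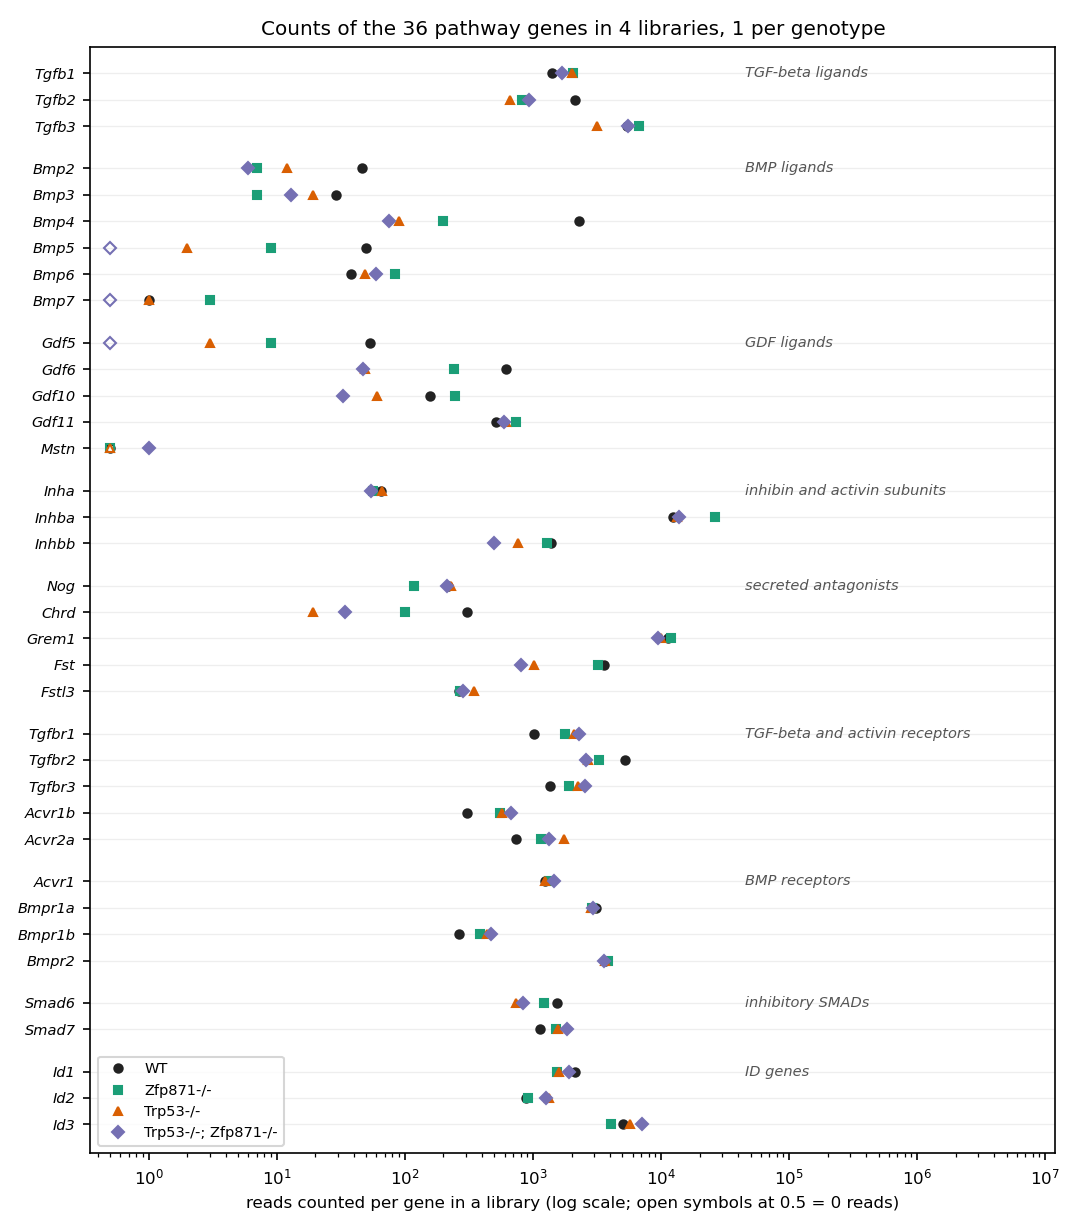
Reads counted for each of the 36 genes in the 4 libraries on a log axis, grouped by role; each symbol is 1 library, and open symbols drawn at 0.5 stand for 0 reads. Counts of different genes are not scaled for length, so symbols are to be compared along a row: WT lies far to the right for Bmp4 (2303 reads against 75 to 198), and both Trp53-null libraries lie to the left for Fst (1024 and 805 reads against 3616 and 3228).

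Zfp871 loss called no member. The additive edgeR test called 0 of 13306 genes in either direction for the Zfp871 term (0.0% higher and 0.0% lower), with 3.83% of genes at an unadjusted p under 0.05. limma-voom also called 0 genes, and DESeq2 called 3 higher and 4 lower, none of them among the 36. The transforming growth factor Tgfb3 was the 1 member of 30 with an unadjusted p under 0.05. Pairwise, 2 of 30 were at least 2-fold higher in Zfp871-/- than in WT (Bmp6 and Inhba, beside 3.52% of all genes) and 4 were at least 2-fold lower (Tgfb2, Bmp4, Gdf6 and Chrd, beside 3.98%). Between the double null and Trp53-/- none of the 30 was 2-fold apart, where 0.819% of all genes were that much higher and 1.01% that much lower. None was 2-fold lower with Zfp871 loss in both backgrounds, beside 0.158% of all genes, or 2-fold higher in both, beside 0.105%.

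**Figure D2:**
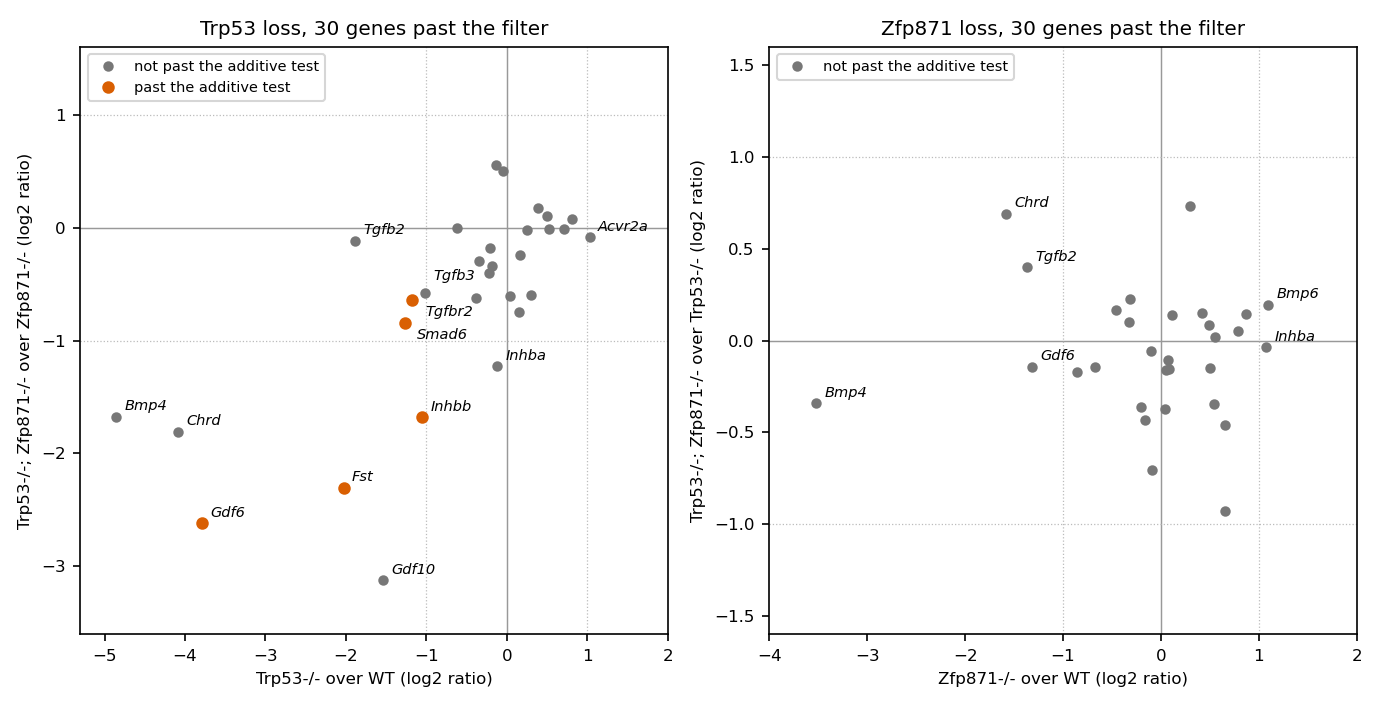
Log2 ratios of normalized CPM for the 30 tested genes, with each loss in the otherwise intact background on the horizontal axis and in the background lacking the other gene on the vertical axis; dotted lines mark 2-fold. For Trp53 loss (left) the 5 orange genes past the additive edgeR test lie below 0 on both axes, and for Zfp871 loss (right) no gene is past the test and Bmp4 lies at -3.53 and -0.34.

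The TGF-beta ligands differed from one another. Tgfb1, the most widely made of the 3, had 1419, 2066, 2018 and 1685 counts. Scaled to library size it was higher in both single nulls than in WT or the double null, with log2 ratios to WT of 0.54 (0.45 to 0.64) for Zfp871-/- and 0.30 (0.20 to 0.40) for Trp53-/-. Tgfb2 (ENSMUSG00000039239, chromosome 1, 186622792 to 186705989, GRCm38/mm10, minus strand) had 2114, 816, 661 and 929 counts. WT thus stood above each other library, with log2 ratios of -1.37 (95% interval -1.49 to -1.25) for Zfp871-/- over WT and -1.89 (-2.02 to -1.76) for Trp53-/- over WT. The losses on the other background gave 0.40 (0.26 to 0.55) for the double null over Trp53-/- and -0.11 (-0.25 to 0.02) for the double null over Zfp871-/-. Tgfb3 had 5467, 6706, 3135 and 5534 counts and was lowest in Trp53-/-, with a log2 ratio to WT of -1.01 (-1.08 to -0.95). Its Trp53 term was -0.80 ± 0.15 (SE), with a Benjamini-Hochberg adjusted p of 0.0505 in the edgeR test, just outside the threshold. It passed with DESeq2's size factors (0.0451), with DESeq2, with limma-voom and without a count filter. It did not with library totals (0.0716) or a filter of 5 CPM (0.0593). Without the Trp53-/- library the term was -0.44, and without the double null it was -1.17, with adjusted p of 0.449 and 0.216. The adjusted p was 0.0373 without WT and 0.101 without Zfp871-/-.

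Per transcript length, on the deposited FPKM scale, Tgfb3 was the main TGF-beta transcript in every library. It made up 71.4%, 78.3%, 64.3% and 76.8% of the summed FPKM of Tgfb1, Tgfb2 and Tgfb3. That sum was 119, 135, 65.6 and 91.6 in the 4 libraries. Both Trp53-null libraries were below both Trp53-intact ones on this sum. The share of Tgfb2 was 16.1% in WT and 5.56% to 7.92% in the others.

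Of the BMP ligands, Bmp4 was the most abundant per length in every library and showed the widest range of the 30 tested genes. Bmp4 (ENSMUSG00000021835, chromosome 14, 46383520 to 46390669, minus strand), an inducer of mesoderm, limb and skeletal tissue, had 2303, 198, 90 and 75 counts. Every null library was therefore far below WT, and the Trp53-null libraries were below Zfp871-/-. The log2 ratio was -3.53 (-3.75 to -3.33) for Zfp871-/- over WT and -4.86 (-5.21 to -4.58) for Trp53-/- over WT. It was -1.67 (-2.11 to -1.31) for the double null over Zfp871-/- and -0.34 (-0.81 to 0.11) for the double null over Trp53-/-, where the interval includes 0. The additive edgeR test, which counts a difference between backgrounds as error, gave a Trp53 term of -3.41 ± 0.86 (SE) with an adjusted p of 0.0855. The adjusted p was 0.0402 with limma-voom and 0.00352 without a count filter, and 0.0711 to 0.0962 with DESeq2, other scalings or the 5 CPM filter. With Trp53 as the only term and 1 library left out, the term was -1.52 without WT and -5.06 without Zfp871-/-. It was -4.36 without Trp53-/- and -4.01 without the double null. On the FPKM scale Bmp2 to Bmp7 summed to 56.0, 6.12, 2.70 and 2.24, and Bmp4 made up 96.3%, 76.4%, 67.5% and 63.9% of that sum.

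The promoter of Bmp4 is printed because this gene had the lowest pairwise ratio among the 30 tested genes of the family. It spans the 250 bases before the RefSeq start, chr14:46390670-46390919 on the minus strand of GRCm38.p6. RefSeq promoters were matched for 25 of the 36 genes, in 28 windows, and no window was matched for Tgfb3, Bmp2, Bmp3, Bmp7, Gdf5, Gdf6, Nog, Fst, Tgfbr3, Smad7 and Id1. Each window was searched on both strands for the p53 decamer, which is only a part of a full p53 recognition site. It was also searched for the SMAD box CAGAC, which reads as GTCTG on the opposite strand. The GC-rich SMAD element, GGCGCC, was searched as well, and like the decamer it is its own reverse complement. Matches are set in capitals, and the Bmp4 window holds none of the 3 motifs.
Bmp4: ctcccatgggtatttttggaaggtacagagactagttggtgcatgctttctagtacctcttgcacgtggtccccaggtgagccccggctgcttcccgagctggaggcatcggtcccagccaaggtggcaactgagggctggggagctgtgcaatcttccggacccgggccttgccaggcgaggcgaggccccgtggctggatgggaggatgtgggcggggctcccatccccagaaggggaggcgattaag

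The p53 decamer was found in 5 of the 28 windows, those of Bmpr2, Bmpr1b, Tgfbr2, Fstl3 and Gdf10, and in 7.13% of all 32851 RefSeq windows of this length. The SMAD box was found in 14 of the 28 windows and in 42.2% of all, and GGCGCC in 6 of 28 and in 9.59% of all. In a Bmpr1b window the decamer overlaps the SMAD box. A match is a description of these letters and not a bound site, and an absent match says only that the letters are not in this window.

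The other BMP ligands were scarce. Bmp6, a BMP that controls hepcidin in the liver, had 38, 83, 49 and 60 counts. It was at least 2-fold higher in Zfp871-/- than in WT, with a log2 ratio of 1.09 and a wide interval of 0.56 to 1.72. Reads of Txndc5, which had up to 11336 counts and overlaps 5.7% of the Bmp6 exons on the opposite strand, cannot be separated from it because the strand setting of the counting is not stated. Bmp2, Bmp3, Bmp5 and Bmp7 did not pass the count filter. Bmp2 had 46, 7, 12 and 6 counts, Bmp3 had 29, 7, 19 and 13, Bmp5 had 50, 9, 2 and 0, and Bmp7 had at most 3 in any library. WT was the highest library for Bmp2, Bmp3 and Bmp5. For Bmp5 in the double null over Zfp871-/-, with 0 counts against 9, the 95% counting interval of the log2 ratio ended at -1.28.

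Among the GDF ligands, Gdf6 and Gdf10 were low in both Trp53-null libraries. Gdf6 (ENSMUSG00000051279, chromosome 4, 9844372 to 9862345, plus strand), a BMP family ligand needed for joints and skull sutures, had 611, 243, 49 and 47 counts. It was highest in WT, intermediate in Zfp871-/- and lowest where Trp53 was lost. It fell with Trp53 loss by 3.27 ± 0.36 (SE) on the log2 scale (edgeR, adjusted p = 0.0242). The ratios were -3.80 (-4.30 to -3.43) over WT and -2.62 (-3.15 to -2.22) over Zfp871-/-. Zfp871-/- over WT stood at -1.32 (-1.55 to -1.11), and the double null over Trp53-/- at -0.14 (-0.76 to 0.46).

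Gdf10, also known as BMP3b, had 157, 247, 61 and 33 counts, with Zfp871-/- the highest library. Its ratios for Trp53 loss were -1.54 (-2.03 to -1.14) with Zfp871 and -3.12 (-3.78 to -2.68) without it, and its adjusted p in the edgeR test was 0.0585. Gdf11, which patterns the axial skeleton, had 518 to 733 counts and no ratio of 2-fold. Gdf5, a joint ligand, had 53, 9, 3 and 0 counts and did not pass the filter, like Mstn (myostatin), with 1 count in the double null and 0 elsewhere. WT had the highest Gdf5 count, and with the same counts of 0 and 9 the interval for the double null over Zfp871-/- ended at the same value.

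Activins are dimers of the beta subunits encoded by Inhba and Inhbb, and the alpha subunit encoded by Inha turns them into inhibins. Inhba (ENSMUSG00000041324, chromosome 13, 16011851 to 16031621, plus strand) had 12477, 26206, 13280 and 13786 counts. Zfp871-/- alone stood apart, at least 2-fold above each other library, which 1 of the 30 genes and 0.338% of all genes did. The log2 ratio was 1.07 (1.04 to 1.10) for Zfp871-/- over WT and -1.23 (-1.26 to -1.20) for the double null over Zfp871-/-. The other pairs were close, at -0.03 for the double null over Trp53-/- and -0.12 for Trp53-/- over WT.

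Inhbb (ENSMUSG00000037035, chromosome 1, 119415465 to 119422248, minus strand) had 1373, 1289, 763 and 496 counts, so both Trp53-null libraries were below both Trp53-intact ones. Inhbb fell with Trp53 loss by 1.37 ± 0.19 (SE) on the log2 scale (edgeR, adjusted p = 0.0322), with ratios of -1.06 (-1.19 to -0.93) over WT and -1.68 (-1.83 to -1.53) over Zfp871-/-. Inha had 54 to 66 counts in the 4 libraries. Per length, Inhba exceeded Inhbb in FPKM by 6.05, 13.5, 11.6 and 18.5 times.

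The 250 bases before the Inhbb start are printed as the promoter of a gene that fell in the test, from chr1:119422249-119422498 on the minus strand (GRCm38.p6, RefSeq). None of the 3 motifs is in this window.
Inhbb: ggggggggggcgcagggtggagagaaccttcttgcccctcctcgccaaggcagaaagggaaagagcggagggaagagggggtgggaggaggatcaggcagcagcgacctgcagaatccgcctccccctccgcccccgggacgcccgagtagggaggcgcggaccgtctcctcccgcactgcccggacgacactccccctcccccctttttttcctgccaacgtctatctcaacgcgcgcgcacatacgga

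Of the secreted antagonists, Fst had the clearest call among the 36 genes. Fst (ENSMUSG00000021765, chromosome 13, 114452290 to 114458951, minus strand) encodes follistatin, which binds activins and keeps them from their receptors. It had 3616, 3228, 1024 and 805 counts, high in both Trp53-intact libraries and low in both Trp53-null ones. Fst fell with Trp53 loss by 2.17 ± 0.13 (SE) on the log2 scale (edgeR, adjusted p = 0.0102). The ratios were -2.03 (-2.13 to -1.93) over WT and -2.30 (-2.42 to -2.19) over Zfp871-/-, while Zfp871 loss gave -0.16 and -0.43. With Inhba and Fst side by side in FPKM, the 4 libraries held 2.48, 5.83, 9.31 and 12.3 units of Inhba per unit of Fst. WT thus had the lowest activin A subunit level relative to follistatin, and the ratio has no test. Fstl3, a relative of follistatin that also binds activins, had 264 to 344 counts and no 2-fold ratio.

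Chrd and Nog encode chordin and noggin, which hold BMPs away from their receptors. Chrd (ENSMUSG00000006958, chromosome 16, 20733127 to 20742384, plus strand) had 307, 101, 19 and 34 counts, with WT highest. Its ratios were -1.58 (-1.94 to -1.27) for Zfp871-/- over WT, -4.08 (-4.98 to -3.56) for Trp53-/- over WT and -1.81 (-2.48 to -1.30) for the double null over Zfp871-/-. For the double null over Trp53-/- it was 0.69, with an interval of -0.10 to 1.64, and the adjusted p of the Trp53 term was 0.0650 (edgeR). Nog had 216, 118, 228 and 215 counts, lowest in Zfp871-/- with a log2 ratio to WT of -0.86 (-1.21 to -0.54). Grem1, the BMP antagonist gremlin 1, was abundant in all, with 11276, 11909, 9982 and 9526 counts. On the FPKM scale, Bmp4 stood at 0.377 of Grem1 in WT and at 0.0307, 0.0166 and 0.0145 in the other libraries.

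Of the receptors of TGF-beta and activin, Tgfbr2 was highest in WT and the other 4 lowest there. Tgfbr2 (ENSMUSG00000032440, chromosome 9, 116084293 to 116175360, minus strand), the type II receptor that binds TGF-beta first, had 5238, 3273, 2689 and 2590 counts. It fell with Trp53 loss by 0.91 ± 0.17 (SE) on the log2 scale (edgeR, adjusted p = 0.0487). This call is at the edge: the adjusted p was 0.0678 when counts were scaled by library totals and 0.0580 with a filter of at least 5 CPM. The ratios were -1.17 (-1.24 to -1.11) over WT and -0.64 (-0.71 to -0.56) over Zfp871-/-, and Zfp871-/- over WT stood at -0.68 (-0.74 to -0.61).

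The 250 bases before the Tgfbr2 start are printed because this is the 1 gene called in the test whose window holds matches, chr9:116175364-116175613 on the minus strand (GRCm38.p6, RefSeq). The first stretch of capitals, beginning 214 bases before the start, is the p53 decamer, and the second, beginning 160 bases before it, is the SMAD box.
Tgfbr2: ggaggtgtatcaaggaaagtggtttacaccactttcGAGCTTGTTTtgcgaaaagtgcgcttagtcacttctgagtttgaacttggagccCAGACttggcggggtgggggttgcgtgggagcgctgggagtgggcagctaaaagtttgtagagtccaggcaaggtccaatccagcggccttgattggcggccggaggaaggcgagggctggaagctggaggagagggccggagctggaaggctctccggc

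Tgfbr1, the type I receptor for TGF-beta, had 1023, 1766, 2085 and 2299 counts, and Tgfbr3, the co-receptor betaglycan, had 1363, 1909, 2240 and 2526. The activin receptors Acvr1b (type I) and Acvr2a (type II) had 303, 555, 576 and 678, and 735, 1156, 1739 and 1343. In each of these 4 genes WT was the lowest library. For Zfp871-/- over WT the log2 ratios were 0.79, 0.49, 0.87 and 0.65, in the order in which the genes are given. For the double null over Trp53-/- they were 0.05, 0.08, 0.15 and -0.46. Acvr2a was the 1 member at least 2-fold higher in Trp53-/- than in WT, with a ratio of 1.03 (0.91 to 1.16), and 7.8% of its exons overlap Orc4 (up to 1282 counts) on the opposite strand. None of these 4 genes passed the additive edgeR test. They were higher with Trp53 loss when the Zfp871-/- library was left out and Trp53 was the only edgeR term, with adjusted p of 0.00107, 0.00675, 0.00621 and 0.0152, in a fit in which 18.4% of all genes rose. Without the WT library the terms were 0.05, 0.06, -0.08 and 0.16, none of them called. On the FPKM scale, Tgfbr2 per Tgfbr1 was 4.09, 1.48, 1.03 and 0.899, so WT held far more of the type II receptor transcript per type I than the others.

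The BMP receptors differed little. Bmpr1a, a type I receptor, had 2854 to 3121 counts. Bmpr2, the type II receptor that pairs with it, had 3576 to 3829, and the type I receptor Acvr1 had 1245 to 1458. Bmpr1b, a type I receptor of cartilage precursors, had 264, 387, 440 and 474, with WT lowest. No ratio of these 4 genes reached 2-fold in any of the 4 pairs. The 9 receptors summed to 116, 122, 109.7 and 107 FPKM, so their sum varied far less than that of the BMP ligands.

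**Figure D3:**
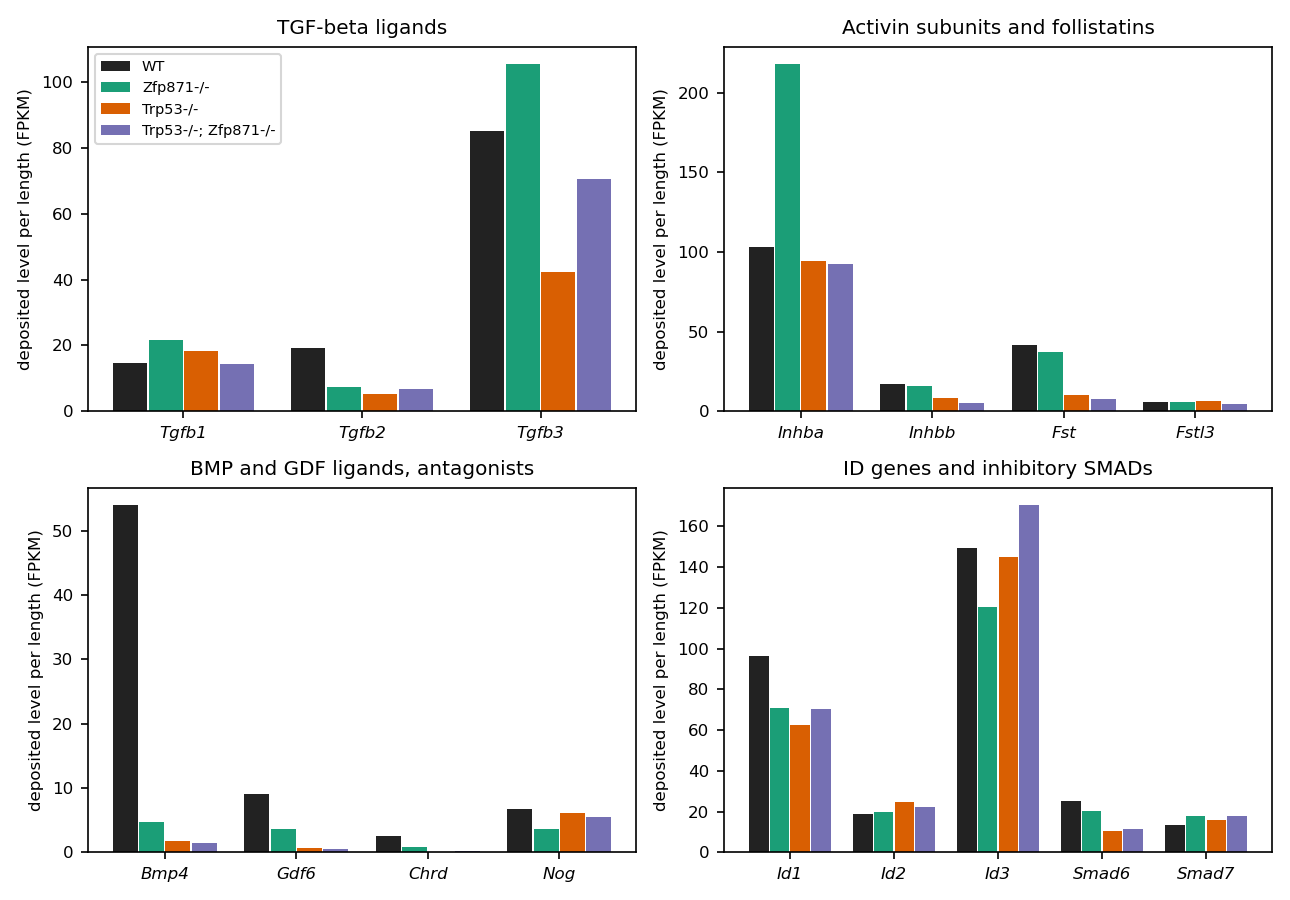
Deposited FPKM values, which are scaled for gene length, of 16 ligands, antagonists, inhibitory SMADs and ID genes; each bar is 1 library, each axis starts at 0 and there are no error bars, since no genotype has a second library. Bmp4 reaches 54.0 in WT and at most 4.68 elsewhere, Inhba reaches 218 in Zfp871-/- and 92.8 to 103 elsewhere, and Fst is 41.5 and 37.4 with Trp53 and 10.2 and 7.54 without it.

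Smad6 and Smad7 encode inhibitory SMADs that block the receptors, Smad6 chiefly for BMP signals and Smad7 for both branches. Smad6 (ENSMUSG00000036867, chromosome 9, 63953076 to 64022059, minus strand) had 1541, 1227, 739 and 843 counts, lower in both Trp53-null libraries. It fell with Trp53 loss by 1.06 ± 0.15 (SE) on the log2 scale (edgeR, adjusted p = 0.0336), with ratios of -1.27 (-1.40 to -1.14) over WT and -0.84 (-0.97 to -0.72) over Zfp871-/-. Smad7 had 1140, 1524, 1575 and 1857 counts, lowest in WT, with no 2-fold ratio.

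The Smad6 promoter is printed as that of another gene that fell, chr9:64022060-64022309 on the minus strand (GRCm38.p6, RefSeq). It holds none of the 3 motifs.
Smad6: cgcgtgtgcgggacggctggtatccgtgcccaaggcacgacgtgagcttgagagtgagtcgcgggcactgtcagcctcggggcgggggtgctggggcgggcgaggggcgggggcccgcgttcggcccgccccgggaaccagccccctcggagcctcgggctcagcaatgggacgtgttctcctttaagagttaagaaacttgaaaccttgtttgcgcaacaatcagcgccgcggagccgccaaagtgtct

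The ID genes encode helix-loop-helix proteins that block other transcription factors of that class, and BMP induces them in many cells. Id1 had 2124, 1543, 1595 and 1902 counts, Id2 had 878, 908, 1327 and 1264, and Id3 had 5071, 4066, 5697 and 7092. None was 2-fold apart in any pair or passed the test. Their summed FPKM was 265, 211, 232 and 263, a far narrower range than that of the BMP ligands.

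4 of the 30 tested genes were at least 2-fold higher in WT than in each other library, where 2.53% of all tested genes were. They were Tgfb2, Bmp4, Gdf6 and Chrd, counted in this way after their values had been seen, and 0 of 30 were at least 2-fold lower in WT than in each other library (2.06% of all). Without the count filter, 7 of the 36 genes were that much higher in WT. The added genes were Bmp2, Bmp5 and Gdf5, with 46, 50 and 53 counts in WT. The filter asks for enough counts in at least 2 libraries, so it can remove low-count genes that are high in WT alone. It therefore shapes both the 4 of 30 and the 2.53%, and no share of all genes without it is given. Of the 13 cartilage markers, 10 were highest in WT by any margin, a looser rule than 2-fold, and Matn1, Matn3 and Matn4 were not. The share of all genes that were highest in WT is not given here. Sox9 is among the 10 by a small margin, at 42.3 normalized CPM in WT and 40.9 in Zfp871-/-. Col2a1, the main collagen of cartilage, had 11633, 558, 25 and 50 counts, and Acan, the cartilage proteoglycan aggrecan, had 1919, 166, 100 and 180. Sox9, the transcription factor that directs cartilage formation, had 798, 771, 654 and 774. The matrilin genes Matn3 and Matn4 had 12, 24, 10 and 33, and 53, 55, 54 and 25. In all 7 markers passed the count filter, and Col9a3 and Col11a1 fell with Trp53 loss. Markers with 0 counts were Matn1 outside Zfp871-/-, Col9a1 in both Trp53-null libraries, Hapln1 in the double null and Cnmd in both single nulls. The part of cartilage-like cells in the ratios of Tgfb2, Bmp4, Gdf6 and Chrd was not tested.

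**Figure D4:**
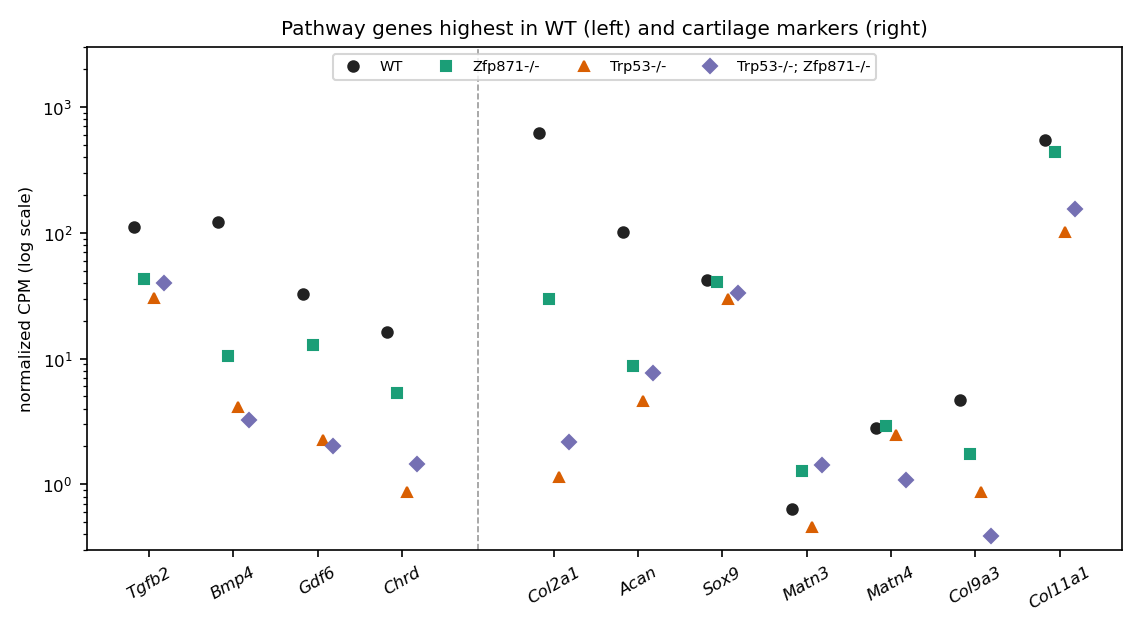
Normalized CPM on a log axis for 4 tested genes (left of the dashed line) and the 7 cartilage markers that passed the count filter (right). The 4 genes are those of the 30 tested that were at least 2-fold higher in WT than in each other library. Each symbol is 1 library. Col2a1 and Acan are highest in WT, as Bmp4 and Chrd are, while the 4 libraries lie close together for Sox9.

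A further 114 genes of the pathway were sorted into 7 lists by role. Of other ligands, 4 of 16 passed the count filter and 2 fell with Trp53 loss (4.31% of all tested genes fell). One was Gdf15, a stress-induced ligand known as a p53 target, with 169, 111, 48 and 45 counts and a Trp53 term of -1.82 ± 0.30 (SE; edgeR, adjusted p = 0.0404). The other was Bmp8a, with 2 to 30 counts. Of other secreted antagonists and modulators, 14 of 21 were tested and 4 fell. Tsku, a secreted BMP antagonist, had 1748, 1719, 686 and 757 counts (Trp53 term -1.52 ± 0.11 SE, edgeR, adjusted p = 0.0125). Htra3, a secreted protease, fell by 1.89 on the log2 scale, Vasn, a membrane protein that traps TGF-beta, by 1.34, and Bmper, which binds BMPs, by 0.84.

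Of other receptors and co-receptors, 7 of 11 were tested and 0 were called, with 2 at least 2-fold higher in a pair. Acvrl1, a type I receptor best known from endothelium, had 342, 1072, 320 and 383 counts, with Zfp871-/- alone high, and Bambi, a decoy receptor, had 139, 193, 340 and 403. The 6 endothelial markers summed to 59.3, 144, 197 and 133 normalized CPM, of which Flt1 alone held 47.1, 119, 180 and 114. Kdr had 165, 383, 341 and 393 counts, and Tek had 52, 53, 9 and 19. Pecam1 had 3, 9, 10 and 7 counts, Cdh5 had 10, 18, 12 and 15, and Emcn had at most 1. The part of endothelial cells in the Acvrl1 values was not tested. Of 18 SMAD mediators and regulators 1 fell, Smad3, which carries the TGF-beta and activin signal. It had 2213, 1702, 1171 and 1203 counts (Trp53 term -0.97 ± 0.13 SE, edgeR, adjusted p = 0.0304). Smad2, its partner, had 939, 950, 1372 and 1331 and was not called.

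The list of latent TGF-beta binding and release had 17 of 18 genes tested, of which 4 fell with Trp53 loss and 1 rose. Lrrc32, which tethers latent TGF-beta to the cell surface, had 7499, 8339, 2464 and 3088 counts and a Trp53 term of -1.78 ± 0.11 (SE; edgeR, adjusted p = 0.0102). Both Trp53-null libraries were low, as they were for Ltbp3, a latent TGF-beta binding protein, which fell by 1.36 on the log2 scale. Mmp2, a matrix protease, fell by 1.63, and Ltbp2 by 0.80, the last named because 4 genes fell in all. Nrros, the myeloid relative of Lrrc32, rose from 11 and 20 counts to 195 and 188, beside the 15 macrophage markers that rose in the same libraries. The part of macrophages in this value was not tested.

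Of 20 TGF-beta response genes, 1 rose and 2 fell with Trp53 loss, beside 5.01% and 4.31% of all tested genes. Tgfbi, a matrix protein named for its induction by TGF-beta, rose by 1.02 on the log2 scale, Timp1, a protease inhibitor, fell by 1.11 and Lox, which crosslinks collagen, fell by 0.99. Of 14 BMP response genes 12 were tested, 1 fell and 0 rose. Tbx2, a T-box repressor, had 125, 168, 19 and 22 counts (Trp53 term -3.08 ± 0.32 SE, edgeR, adjusted p = 0.0222). The homeobox genes Msx1 and Msx2 had 549, 166, 64 and 102, and 245, 50, 13 and 23, highest in WT and not called. The additive edgeR test called no gene of the 7 lists for Zfp871 loss. DESeq2, and edgeR without a count filter, called 1, Ltbp4, with adjusted p of 0.00120 and 0.0158.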

How the data were processed

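RNA of 4 MEF cultures, 1 per genotype, was read from 2 kinds of file. The deposited raw counts per Ensembl gene came from fastp, STAR and featureCounts with the mm10 genome, per the submitters' processing notes. The sources used here state no versions, strand setting or annotation release. The deposited normalized tables name no unit. Their values were taken to be FPKM made by the authors, since dividing the count by 1 length per gene and 1 factor per library gives each of them. For 94.8% of 8543 genes with at least 200 counts in every library, that length was within 0.1% of the summed exons in GENCODE M21. Symbols and coordinates came from GENCODE M21, which holds 54495 of the 54532 IDs.

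Counts were normalized with TMM (edgeR 4.0.16, R 4.3.3; factors 0.978, 0.9438, 1.041 and 1.041). Genes with a CPM of at least 1 in at least 2 libraries were kept. The edgeR quasi-likelihood test of Trp53 + Zfp871 left 1 residual degree of freedom, at a common dispersion of 0.0302. A trial on simulated counts drew every gene at that 1 dispersion. It therefore cannot show how the test fares with real differences between cultures. Pairwise values are log2 ratios of CPM after adding a prior count of 2. Intervals describe counting error alone, because each genotype has 1 library. PCR copies of a molecule were counted without identifiers, so reads may not be independent and the intervals may be too narrow. Nothing says how far the cultures were independent. DESeq2 1.42.0 and limma 3.58.1 served as alternatives, beside other scalings, filters and size rules.

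Members 2-fold apart in a pair or past the test were named with ratios. Up to 4 genes were named per list, those past the test first and then those with the largest ratios, among genes with at least 50 counts in 1 library. Bmp8a, Ltbp2 and Smad2 were named outside that rule, after their values were seen. The members and lists were chosen with earlier results of these data known.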

Additional observations from a re-analysis of the deposited data

Results flagged for a closer look

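For 9 genes, the counting intervals of a loss lay on opposite sides of 0 in the 2 backgrounds. The share of all tested genes that met this rule is not given, so the 9 are no trait of this family. These intervals cover counting error only, so small differences of genes with many counts can meet the rule. With 1 library per genotype the difference between backgrounds was not tested in any of them, and each value below is the log2 ratio in the background lacking the other gene minus that in the background holding it. Among ligands, the difference of Zfp871 loss was -0.89 for Tgfb1, 1.77 for Tgfb2, -1.58 for Gdf10 and -1.11 for Inhba. Tgfb1 was also picked out for Trp53 loss, with the same difference of -0.89 because both come from the same 4 counts. Tgfb1 was higher in both single nulls than in WT or the double null, and Inhba was high in Zfp871-/- alone. Inhba barely met the rule, since the double null over Trp53-/- stood at -0.03 with an interval of -0.0691 to -0.000108. For the antagonist Grem1 the difference was -0.24. For receptors it was -1.11 for Acvr2a and -0.18 for Bmpr2. For the ID genes it was 0.62 for Id1 and 0.54 for Id3, where Zfp871 loss went with a lower level beside intact Trp53 and a higher level without Trp53. The differences of Grem1 and Bmpr2 are the smallest of these.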

How the results depend on the processing

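The 5 genes that fell with Trp53 loss were 6 with DESeq2's size factors, 4 with library totals or a filter of 5 CPM (both without Tgfbr2), 9 with DESeq2 or limma-voom and 12 without a count filter. Each set kept Fst, Gdf6, Inhbb and Smad6. Without the count filter, 1250 genes rose and 1323 fell with Trp53 loss, against 667 and 574, and 2 rose and 6 fell with Zfp871 loss. DESeq2 called 3 and 4 for Zfp871 loss. Library totals raised the share of Trp53 calls that rose from 53.7% (667 of 1241) to 67.2% (867 rose, 423 fell), and moved the median log2 ratio of all genes by 0.141 for the double null over Zfp871-/-. At 1.5-fold in place of 2-fold, 6 of 30 members were higher in Zfp871-/- than in WT (9.27% of all genes), 2 higher (2.8%) and 2 lower (3.77%) for the double null over Trp53-/-, 3 higher for Trp53-/- over WT (15.9%), and 13 lower for the double null over Zfp871-/- (12.7%).

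Leaving out 1 library, with a single term, was chosen after seeing the data. For Trp53 loss the genes that rose then ranged from 0 to 2444 and those that fell from 0 to 2370, the members that rose from 0 to 5 and those that fell from 0 to 13, and all were 0 for Zfp871 loss. No member called in the main fit changed direction under any setting, and each call under another setting had the direction of the main fit. Among members not called in the main fit, the Trp53 terms of Tgfb1, Bmp6, Nog, Fstl3, Acvr1b, Bmpr1b and Smad7 changed sign between settings. Those of Acvr1b and Bmpr1b were 0.79 and 0.53 without the Zfp871-/- library, and -0.08 and -0.02 without WT. No paired analysis was possible because each genotype has 1 library and the labels carry no replicate numbers. With both terms, leaving out a library leaves no residual degree of freedom. Depth limits Bmp2, Bmp3, Bmp5, Bmp7, Gdf5 and Mstn most, since each had at most 53 counts.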

Other observations

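Some pathway genes outside the naming rule also stood apart, and were picked after their values were seen. Ltbp4, which encodes a latent TGF-beta binding protein of elastic fibres, was lower wherever Zfp871 was lost, with 711, 215, 737 and 287 counts in WT, Zfp871-/-, Trp53-/- and the double null. Zfp871-/- over WT stood at a log2 ratio of -1.72 (95% counting interval -1.95 to -1.50), and the double null over Trp53-/- at -1.44 (-1.65 to -1.25). Its Zfp871 term was -1.58 ± 0.16 (SE), with an unadjusted p of 0.000348 and an adjusted p of 0.874 in the edgeR test. The adjusted p was 0.00120 with DESeq2, 0.0158 in edgeR without a count filter, and 0.645 to 0.877 under the other alternatives. Of all tested genes, 0.158% were at least 2-fold lower with Zfp871 loss in both backgrounds.

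Itgb8, a subunit of an integrin that releases latent TGF-beta, had 293, 61, 21 and 36 counts in the same order and was highest in WT. Itgb3, a subunit of another integrin that binds latent TGF-beta, had 672, 1929, 953 and 1172 and was highest in Zfp871-/-. Neither integrin gene passed the additive edgeR test for either loss.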
